A study of Mus musculus with 6 samples.

Results

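The 9 genes described here encode subunits of the RNA ligase complex and of the splicing endonuclease that mature intron-containing tRNAs. They were taken by symbol from the deposited table of 23235 genes, and all 9 were found and passed the filter for testing, a mean of at least 1 FPKM (fragments per kilobase of transcript, scaled to library size) over the 6 libraries, which 12029 genes passed. The ligase genes are Rtcb, listed under its older symbol D10Wsu52e, Ddx1, Fam98a, Fam98b and Rtraf, listed as 2700060E02Rik. The endonuclease genes are Tsen15, Tsen34 and Tsen54, described with Clp1, whose product binds the endonuclease. The cells were fully-grown GV (germinal vesicle) oocytes of C57BL/6 mice, arrested in meiotic prophase. Oocytes were wild type (WT, 3 libraries) or carried an Rtcb knock-out (Rtcb KO, 3 libraries). Both genotypes had received PMSG, a gonadotropin that stimulates follicle growth, 44 to 48 h before collection, and each library was made from 10 oocytes. The sample titles carry the tag 6W, which the labels do not explain. The labels do not give the knock-out allele, the deleted part of the gene, any Cre driver or the number of animals, and the p-values reflect library-to-library spread alone, part or all of which may be technical.

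In vertebrates the endonuclease cuts the intron out of a pre-tRNA, leaving exons that are then joined. TSEN34 is a catalytic subunit, TSEN15 and TSEN54 are structural subunits, and CLP1 is an RNA kinase. RTCB joins the exons directly and also joins the pieces of Xbp1 mRNA cut by IRE1 in the unfolded protein response. DDX1 is a helicase that aids the turnover of the ligase, and FAM98B, its paralog FAM98A and RTRAF are further components or partners of the complex. CLP1 also works with PCF11 in cleavage factor II, which takes part in forming the 3′ ends of mRNAs.

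The values are FPKM scaled by the authors to ERCC spike-in RNA, and read depth is unknown. Division of the WT values by 2 and of the KO values by 4/3 turned 100% of values of at least 1 into numbers of 6 significant digits, so each genotype carries a single factor, and the KO factor is 0.667 of the WT factor (−0.58 in log2 units). A factor shared by all libraries of a genotype adds no spread among them, so any error in it is not in the p-values. Values below are as deposited unless said otherwise, and changes are also given with the genotype factors removed. The summed FPKM lay between 1267730 and 1347014 in WT and between 943926 and 999507 in KO. KO library 2 lay nearer to WT than the others on the first principal component (35.8, against 48.2 and 49.4 for KO 1 and KO 3), and WT libraries lay between −45.4 and −43.4. Oocyte markers such as Zp3 and Gdf9 summed to 30079 to 32801.3 FPKM in WT and to 20318.8 to 21395 FPKM in KO. Not all of them fell as deposited, since Figla went from 127 ± 13.5 FPKM in WT to 171 ± 5.42 FPKM in KO. Of 15 granulosa and cumulus markers, 8 stayed under 1 FPKM in all libraries and Ptx3 was listed at 0. Their sum was 56.5 to 65.0 FPKM in WT and 46.5 to 59.2 in KO, with Cyp19a1 at 35.5 to 39.9 FPKM in WT and 17.5 to 22.2 in KO. Others of this list had higher means in KO, as Nr5a2 (9.45 ± 1.88 to 13.4 ± 1.08 FPKM) and Inha (6.38 ± 2.55 to 10.7 ± 6.28 FPKM). Hbb-b1 and Hba-a1 of red cells, Cdh5 of endothelium and Acta2 of smooth muscle were listed at 0 in all libraries. The sums were 0.54 to 1.60 FPKM (WT) and 0.047 to 0.619 FPKM (KO) for 6 theca and stroma markers, 2.88 to 4.88 and 0.879 to 8.77 FPKM for 6 blood and immune markers, and 34.4 to 50.6 and 19.4 to 21.5 FPKM for 4 endothelial markers, mostly Pecam1. The highest KO sum of blood and immune markers was that of KO 2, with Lyz2 at 5.46 FPKM there and at 0 in KO 1 and KO 3. The part of these in the results was not tested.

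The 9 genes lie on 8 chromosomes, Clp1 and Fam98b both on chromosome 2, and the longest protein-coding transcripts have 4 (Clp1) to 26 exons (Ddx1) in GENCODE vM21, an annotation of a later build than the mm9 of the values. Upstream sequences from RefSeq (build GRCm38.p6) were matched for 8 of the 9 genes. Those of 2 paralogs that moved apart, Fam98a and Fam98b, and of the 2 genes with the largest rises, Clp1 and Tsen15, are shown 5′ to 3′ on the gene's strand, ending before the first annotated transcript start, with matches to the GC box GGGCGG or its reverse complement in capitals. They are chr17:75551947-75552196 on the minus strand for Fam98a, chr2:117249489-117249738 on the plus strand for Fam98b, chr2:84727351-84727537 on the minus strand for Clp1 and chr1:152386689-152386932 on the minus strand for Tsen15.
Fam98a: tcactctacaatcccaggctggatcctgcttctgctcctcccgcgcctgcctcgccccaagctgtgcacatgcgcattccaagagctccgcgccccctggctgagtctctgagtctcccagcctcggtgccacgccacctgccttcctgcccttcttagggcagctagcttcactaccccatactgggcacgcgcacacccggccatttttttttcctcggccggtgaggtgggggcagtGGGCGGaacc
Fam98b: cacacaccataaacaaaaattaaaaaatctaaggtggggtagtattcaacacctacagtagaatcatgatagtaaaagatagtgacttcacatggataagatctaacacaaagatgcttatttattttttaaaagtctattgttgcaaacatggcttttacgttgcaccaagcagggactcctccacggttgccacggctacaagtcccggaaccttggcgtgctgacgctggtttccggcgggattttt
Clp1: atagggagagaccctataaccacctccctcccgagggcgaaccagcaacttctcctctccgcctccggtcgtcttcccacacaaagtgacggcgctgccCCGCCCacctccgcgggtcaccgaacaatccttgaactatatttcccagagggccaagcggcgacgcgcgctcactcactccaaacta
Tsen15: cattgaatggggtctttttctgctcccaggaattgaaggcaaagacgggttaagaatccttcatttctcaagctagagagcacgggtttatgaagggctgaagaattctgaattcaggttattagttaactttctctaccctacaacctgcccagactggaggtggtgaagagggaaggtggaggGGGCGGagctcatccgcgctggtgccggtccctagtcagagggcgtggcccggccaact
Within 250 bases upstream of the RefSeq start, the GC box, searched on both strands, was found for 6 of the 8 matched genes and in 32.7% of all 32851 such windows. Members are counted by gene and the background by window, and Tsen34 has 2 windows, both with the GC box. The GC box was present for Fam98a, 2700060E02Rik, Tsen15, Tsen34, Tsen54 and Clp1, and had no match for Ddx1 and Fam98b. The ETS motif CCGGAAG matched Ddx1 alone (6.91% of all windows), and the CCAAT box (33.8%) and the XBP1 core ACGTGG (6.91%) matched 2700060E02Rik alone. No match was found for TATAAA (12.4%) or the NRF1 core GCATGCGC (2.26%). The GC content ran from 41.2% for Fam98b to 64.0% for Fam98a, against a median of 52.4% over all windows. Matches of different motifs overlapped at 0 positions in the windows of the 8 genes.

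As deposited, limma called 7 of the 9 genes at an adjusted p under 0.05, where 63.3% of all tested genes were called. Clp1, Tsen15 and Fam98a rose (9.29% of tested genes rose), and Rtcb, Ddx1, Fam98b and Rtraf, the last of which turns positive under the other 3 scalings, fell (54% fell). After removal of the genotype factors 6 rose and 3 fell, where 43.7% of tested genes were called, 25.7% higher and 18% lower. With library totals made equal 4 rose and 3 fell, where 44.8% were called, 19% higher and 25.8% lower. With median-ratio rescaling 5 rose and 3 fell, where 44.5% were called, 22.8% higher and 21.7% lower. The 6 genes called in one direction under all of these scalings were Clp1, Tsen15 and Fam98a, higher, and Rtcb, Ddx1 and Fam98b, lower. Rtcb is the targeted gene, so its fall is set by the knock-out. It is nevertheless included in every count of the 9 genes, here and below. Across all tested genes 9.23% were higher and 18% lower under all 4. The median log2 change of the 9 genes was 0.18, against −0.47 for all tested genes. With the factors removed these medians were 0.70 and 0.043. The KO and WT libraries did not overlap for 7 of the 9 genes as deposited (67.8% of tested genes) and for all 9 with the factors removed (56.4%).

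**Figure D1:**
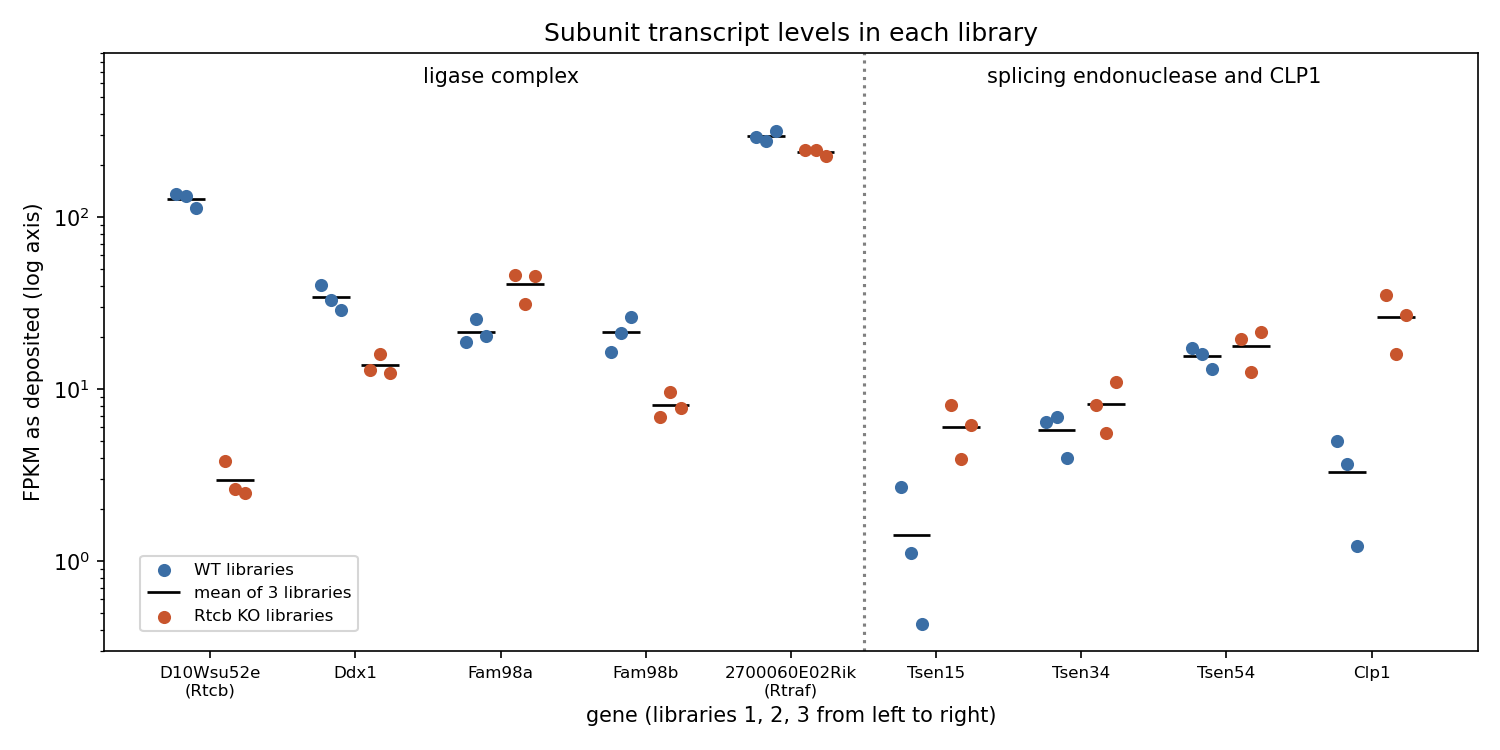
FPKM as deposited (log axis) of the 9 genes in each WT and Rtcb KO library, with a bar at the mean of 3 libraries. Rtcb drops from above 112 to below 3.9 FPKM, Fam98a and Fam98b start level in WT and part in KO, and KO library 2 is the lowest KO library for Fam98a, Tsen15, Tsen34, Tsen54 and Clp1.

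Rtcb, the targeted gene, had levels of 136, 133 and 113 FPKM in WT and 3.82, 2.62 and 2.49 FPKM in KO. The lowest WT library was far above the highest KO library. The KO mean was 2.34% of the WT mean as deposited and 3.51% with the factors removed (127 ± 12.9 against 2.98 ± 0.733 FPKM, SD, n = 3; log2 fold change −5.02 with a standard error of 0.157, limma adjusted p = 1.36e-05). Rtcb thereby moved from above 83.9% of tested genes in WT to above 19.8% in KO. Because each library pools 10 oocytes, fewer oocytes with the transcript and less of it per oocyte cannot be told apart. Of the nearest genes along the chromosome, Ascl4, whose exons overlap those of Rtcb on the opposite strand, was under 0.25 FPKM in all libraries. Prdm4 was at 30.2 ± 3.16 FPKM in WT and 31.2 ± 4.92 in KO (limma adjusted p = 0.829; with the factors removed it was higher, at 0.59, adjusted p = 0.0127). On the other side Bpifc (8.80 to 5.24 FPKM, log2 fold change −0.68) and Fbxo7 (83.4 to 63.3 FPKM, −0.39) fell as deposited by limma (adjusted p = 0.0158 and 0.0134), and neither was called with the factors removed (0.51 and 0.183). Of 8012 genes whose mean reached 5 FPKM, none had a profile near that of Rtcb. The closest were Krt76, Ccl2 and Dcpp3, at root-mean-square distances of 1.77 to 1.84 on the log2(FPKM + 1) scale over the 6 libraries, with log2 fold changes from −2.53 to −2.44.

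Ddx1, the helicase of the complex, was at 40.4, 33.2 and 28.8 FPKM in WT and at 12.9, 16.1 and 12.4 FPKM in KO. All KO libraries lay below all WT libraries. The mean fell 2.48-fold (34.1 ± 5.86 to 13.8 ± 2.03 FPKM, n = 3; log2 fold change −1.25 with a standard error of 0.16, limma adjusted p = 0.000403) and 1.65-fold with the factors removed (−0.67, adjusted p = 0.0113). Psg17, AY512915 and Fbxo10 had the most similar profiles over the 6 libraries (root-mean-square distances 0.045 to 0.064).

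Fam98b was at 16.5, 21.3 and 26.3 FPKM in WT and at 6.90, 9.66 and 7.73 FPKM in KO, with no overlap. Its mean fell 2.64-fold (21.4 ± 4.92 to 8.10 ± 1.41 FPKM; log2 fold change −1.29 with a standard error of 0.194, limma adjusted p = 0.000791). With the factors removed the fall was 1.76-fold (adjusted p = 0.0175), and that call was lost without KO 3 (0.0619), KO 1 or WT 2. The ratio of Fam98b to Ddx1 FPKM within a library, from which any factor common to the library cancels, was 0.408, 0.643 and 0.913 in WT and 0.537, 0.600 and 0.625 in KO. The KO ratios lay inside the WT range, and the difference of −0.083 (log2; WT SD 0.584, KO SD 0.113) was within the spread (exact permutation test, two-sided, p = 0.8, n = 3). It turned to 0.195 without WT 3.

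Fam98a, the paralog, moved the other way. It was at 18.9, 25.4 and 20.4 FPKM in WT and at 46.1, 31.3 and 45.4 FPKM in KO, and the lowest KO library exceeded the highest WT library. The mean rose 1.90-fold (21.6 ± 3.42 to 40.9 ± 8.36 FPKM; log2 fold change 0.88 with a standard error of 0.18, limma adjusted p = 0.00332) and 2.85-fold with the factors removed (1.42, adjusted p = 0.00133). In WT the paralogs were at like levels, with ratios of Fam98a to Fam98b of 1.15, 1.19 and 0.776 in the 3 libraries. In KO the ratios were 6.68, 3.24 and 5.87, so that Fam98a exceeded Fam98b in every KO library. The KO ratio was 4.93-fold that of WT, a difference of 2.30 on the log2 scale (WT SD 0.342, KO SD 0.557; exact permutation test, two-sided, p = 0.1, adjusted p = 0.133 over 8 pairs). No p under 0.1 can be had with 3 against 3 libraries. The ratio of Fam98a to Ddx1 was 0.467, 0.766 and 0.709 in WT and 3.59, 1.94 and 3.67 in KO, 4.65-fold higher and without overlap (p = 0.1 by the same exact test). Klhl7, Hsd17b10 and Exosc6 had the profiles most like that of Fam98a (distances 0.071 to 0.085). Fam98c, the remaining family member in the table and not one of the 9, went from 29.7 ± 6.10 to 17.9 ± 2.02 FPKM (log2 fold change −0.69, limma adjusted p = 0.00701; −0.13, adjusted p = 0.543, with the factors removed), and is named after its values were seen.

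Rtraf was the most abundant of the 9 transcripts in both genotypes, at 293.7, 279 and 319 FPKM in WT and 244, 247 and 228 FPKM in KO. Its libraries did not overlap, yet the direction depends on the scaling. The mean changed 0.807-fold as deposited (297 ± 20.2 to 239.7 ± 10.1 FPKM; log2 fold change −0.31 with a standard error of 0.087, limma adjusted p = 0.0153) and 1.21-fold with the factors removed (0.28, adjusted p = 0.0336), and the deposited call was lost without KO 3 (0.0595). With the factors removed the call was lost in 5 of 6 fits that left out 1 library (up to 0.124, without WT 2). It was not called with equal totals (0.12, adjusted p = 0.26) or median-ratio rescaling (0.21, adjusted p = 0.107). Relative to the median of all tested genes the change was 0.16. Against Ddx1 in the same library its ratios were 7.27, 8.41 and 11.1 in WT and 19.0, 15.3 and 18.4 in KO, 1.996-fold higher in KO without overlap (exact permutation test, two-sided, p = 0.1, n = 3). Nid2, whose exons overlap those of Rtraf on the opposite strand, was under 0.17 FPKM in all libraries.

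**Figure D2:**
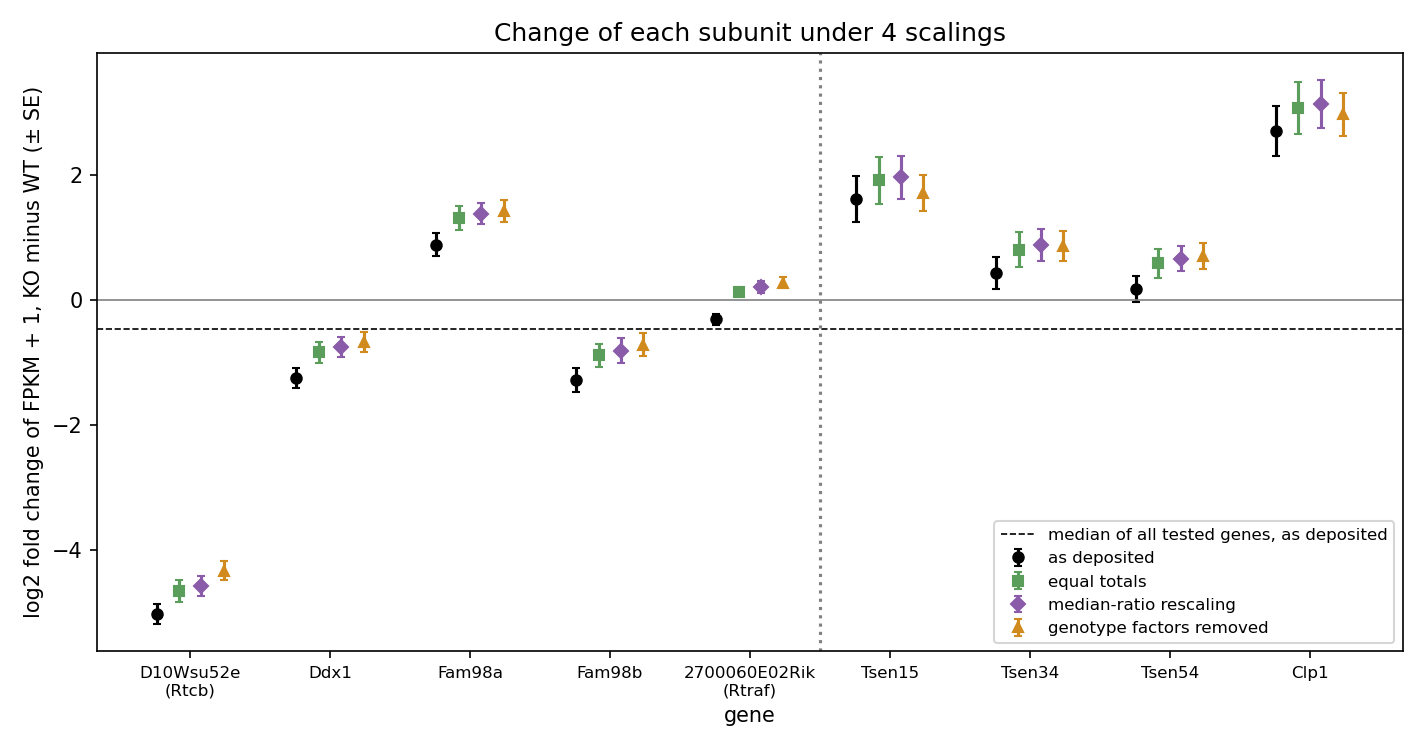
Log2 fold change of FPKM + 1 (KO minus WT, with the limma standard error) of the 9 genes as deposited and under 3 other scalings, with a dashed line at the median of all tested genes as deposited (−0.47). Rtraf is the gene whose sign depends on the scaling, while Clp1 stays above 2.7 and Rtcb below −4.3.

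Clp1, the RNA kinase, rose most of the 9 genes. It was at 5.01, 3.68 and 1.23 FPKM in WT and at 35.2, 16.01 and 27.1 FPKM in KO. The lowest KO library lay well above the highest WT library. The mean rose 7.89-fold (3.31 ± 1.92 to 26.1 ± 9.64 FPKM; log2 fold change 2.70 with a standard error of 0.398, limma adjusted p = 0.000712), between 6.01-fold without WT 3 and 10.6-fold without WT 1, and 11.8-fold with the factors removed. Clp1 moved from above 17.9% of tested genes in WT to above 63.2% in KO. Neighbouring genes on chromosome 2 did not share a change of this size. Zdhhc5 was at 22.4 ± 1.66 and 22.6 ± 4.72 FPKM (log2 fold change −0.0070, limma adjusted p = 0.973; 0.54, adjusted p = 0.0299, with the factors removed). Med19 was at 80.7 ± 10.2 and 66.9 ± 8.45 FPKM (limma adjusted p = 0.112, and 0.0887 with the factors removed), and Ypel4 and Serping1 were listed at 0 in all libraries. The profiles most like that of Clp1 were those of Plekhf2, Slc39a1 and Tex19.2 (distances 0.193 to 0.254), with rises of 8.48-fold, 6.72-fold and 8.45-fold by the means. Rises of like size follow from how these genes were picked.

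Tsen15, a structural subunit of the endonuclease, had the lowest level of the 9 in WT, at 2.71, 1.12 and 0.432 FPKM, and was at 8.07, 3.93 and 6.19 FPKM in KO. The groups did not overlap. The mean rose 4.27-fold (1.42 ± 1.17 to 6.06 ± 2.08 FPKM; log2 fold change 1.61 with a standard error of 0.363, limma adjusted p = 0.00541), a ratio that ranged from 3.165 without WT 3 to 7.81 without WT 1. With the factors removed the log2 fold change was 1.71 (adjusted p = 0.00317). In WT, Tsen15 and Clp1 were both highest in library 1 and lowest in library 3, and in KO both were highest in library 1 and lowest in library 2. This order was in part shared by other members. Tsen54 had the same order in WT and, like Tsen34 and Fam98a, was also lowest in KO 2.

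Tsen34, a catalytic subunit, was at 6.41, 6.87 and 4.01 FPKM in WT and at 8.07, 5.58 and 10.95 FPKM in KO. The groups overlapped through KO 2, and the gene was not called (5.76 ± 1.54 and 8.20 ± 2.69 FPKM; log2 fold change 0.43 with a standard error of 0.26, limma adjusted p = 0.178), nor without KO 2 (0.65, adjusted p = 0.0557). With the factors removed it was called, at 0.86 (adjusted p = 0.022), and lost that call in 3 of 6 fits without 1 library (up to 0.0766, without KO 3). Tsen34 was also called with equal totals (0.80, limma adjusted p = 0.0444) and with median-ratio rescaling (0.87, limma adjusted p = 0.024). Mboat7, whose exons overlap those of Tsen34 on the opposite strand, went from 10.8 ± 3.11 to 4.40 ± 0.665 FPKM (limma adjusted p = 0.00285). The labels describe no step that marks strand, so shared reads of the pair cannot be told apart. Tsen54, a structural subunit, was at 17.4, 16.03 and 13.1 FPKM in WT and at 19.5, 12.7 and 21.6 FPKM in KO. Its groups overlapped too (15.5 ± 2.19 and 17.9 ± 4.69 FPKM, log2 fold change 0.18 with a standard error of 0.206, limma adjusted p = 0.476). With the factors removed Tsen54 was called (0.70, limma adjusted p = 0.0246). That call was lost in 4 of 6 fits without 1 library (up to 0.0922, without KO 3). Tsen54 was also called with median-ratio rescaling (0.66, limma adjusted p = 0.0291) and not with equal totals (0.58, limma adjusted p = 0.0674).

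Ratios within a library compare the endonuclease genes with each other apart from any common factor. Any reads that Tsen34 shares with Mboat7 do not cancel in the ratios to Tsen34. The ratio of Tsen54 to Tsen34 was 2.71, 2.33 and 3.27 in WT and 2.41, 2.27 and 1.98 in KO, and these ranges overlapped (log2 difference −0.31, exact permutation test, two-sided, p = 0.2, n = 3). The ratio of Clp1 to Tsen34 was 0.783, 0.535 and 0.308 in WT and 4.36, 2.87 and 2.48 in KO, 6.22-fold higher. The ratio of Tsen15 to Tsen34 was 0.423, 0.163 and 0.108 in WT and 1.00, 0.704 and 0.565 in KO, 3.77-fold higher (1.91 on the log2 scale, and 1.18 with 1 FPKM added to both genes). All KO libraries thus lay above all WT libraries for both. The ratio of Clp1 to Tsen15 was 1.85, 3.28 and 2.85 in WT and 4.36, 4.07 and 4.38 in KO, 1.65-fold higher. These 3 ratios did not overlap between the genotypes (p = 0.1 each by the two-sided exact permutation test, adjusted p = 0.133). Of the 8 ratios compared, 6 did not overlap. The pairs have genes in common, and ratios of other gene pairs were not examined, so this count has no background beside it.

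**Figure D3:**
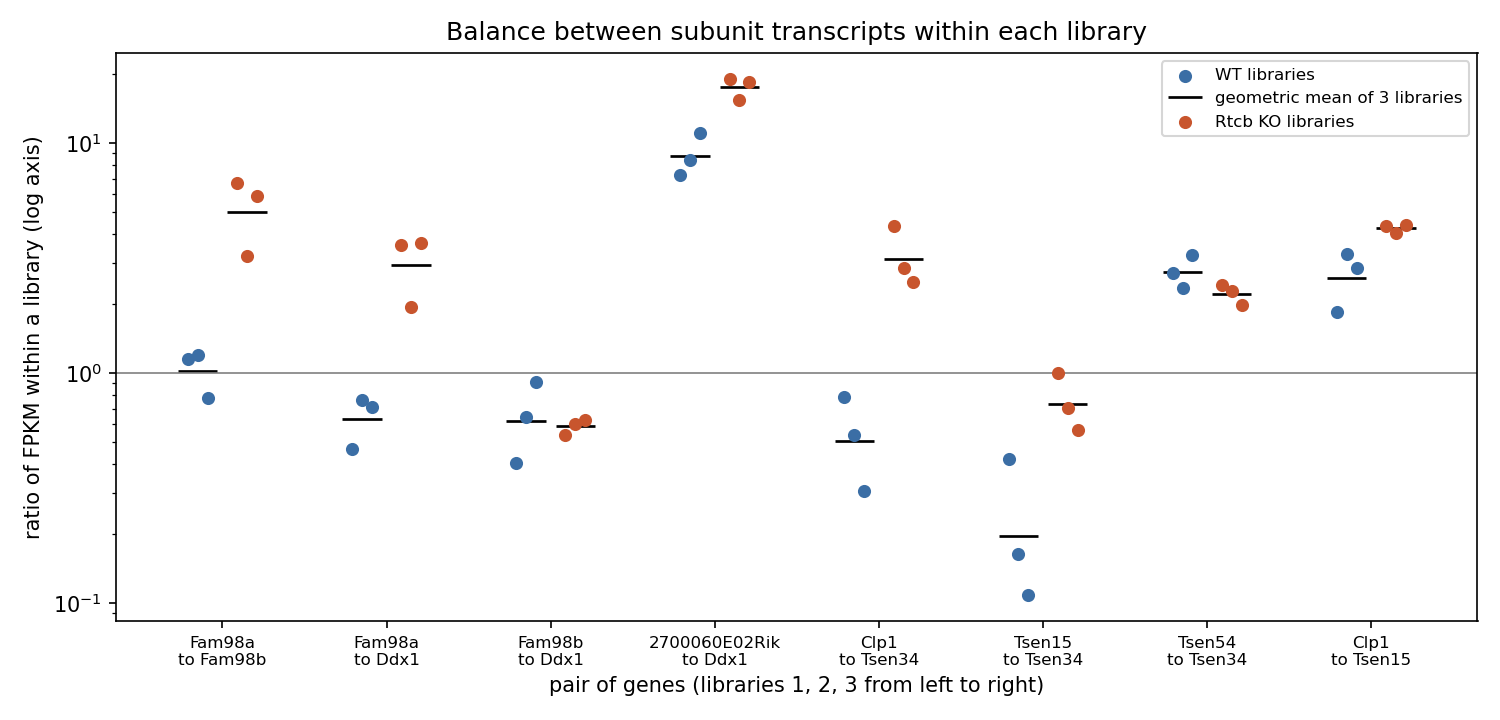
Ratio of the FPKM of 2 genes within each library (log axis), with a bar at the geometric mean of 3 libraries. Fam98a to Fam98b moves from about even in WT to at least 3.24 in KO, whereas the ranges of Fam98b to Ddx1 and of Tsen54 to Tsen34 overlap between the genotypes.

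Since FPKM are per length, levels can be set against each other within a genotype. In WT the order of mean FPKM was Rtraf, Rtcb, Ddx1, Fam98a, Fam98b, Tsen54, Tsen34, Clp1 and Tsen15. The first 3 stood apart from each other and from the rest. The ranges of Fam98a and Fam98b, of Fam98b and Tsen54, of Tsen34 and Clp1, and of Clp1 and Tsen15 overlapped. By mean FPKM all 5 ligase genes thus ranked above the 4 endonuclease genes. In KO the order was Rtraf, Fam98a, Clp1, Tsen54, Ddx1, Tsen34, Fam98b, Tsen15 and Rtcb, where Rtraf and, at the other end, Rtcb stood apart. KO ranges of neighbours from Fam98a to Ddx1 overlapped in turn, as did those from Tsen34 to Tsen15, and the 2 sets were separated between Ddx1 and Tsen34. KO library 2 was the KO library closest to the WT mean for 8 of the 9 genes, the exception being Rtcb, and for 46.2% of all tested genes. Without it the same numbers of the 9 genes were called, 3 higher and 4 lower. The share of all tested genes called without KO 2 was not worked out.

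Accessory genes of tRNA splicing and ligation gave counts that depend on the scaling. Of the 10 tested, 1 rose and 5 fell as deposited, against 3 and 1 with the factors removed, 2 and 2 with equal totals and 3 and 1 with median-ratio rescaling. Of all tested genes 9.29% rose and 54% fell as deposited, and 25.7% and 18% with the factors removed, so the deposited counts are near the background. The list median log2 change was −0.26 (0.18 with the factors removed), beside −0.47 (0.043) over all tested genes. Angel2, a phosphatase that removes cyclic phosphates from RNA ends, the ends that RTCB joins, fell from 199 ± 7.36 to 83.2 ± 12.3 FPKM (log2 fold change −1.25, limma adjusted p = 0.00017; 0.00333 with the factors removed). Ern1, which encodes IRE1, went from 46.4 ± 5.74 to 26.4 ± 1.501 FPKM and Trpt1, a tRNA phosphotransferase, from 21.7 ± 1.80 to 11.4 ± 2.84 FPKM, and both lost their calls with the factors removed (limma adjusted p = 0.173 and 0.152). With equal totals Trpt1 was called lower (limma adjusted p = 0.0432) and Ern1 was not called (0.0585). With median-ratio rescaling neither was called (limma adjusted p = 0.091 for Ern1 and 0.1 for Trpt1). The gene that rose was Xbp1, the mRNA substrate of RTCB (0.887 to 3.70 FPKM), which passed the filter of 1 FPKM only through its KO values, so its rise supports nothing about the list. Zbtb8os, which encodes Archease, the activator of RTCB, was at 46.7 ± 11.6 and 30.9 ± 4.96 FPKM, a call (limma adjusted p = 0.0289) lost with the factors removed (0.985) and in 3 of 6 fits without 1 library as deposited (up to 0.104, without KO 3). Xbp1 and Zbtb8os are named after their values were seen.

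Genes of mRNA 3′ end formation, the other process of CLP1, had members called in both directions. Of 19 tested, 4 rose and 9 fell (9.29% and 54% of all tested genes), with 7 and 3 after removal of the factors (25.7% and 18%), 4 and 7 with equal totals and 5 and 4 with median-ratio rescaling. The list median log2 change was −0.22, and 0.33 with the factors removed. Those that rose, named after their values were seen, were Pcf11, the partner of CLP1 in cleavage factor II (6.34 ± 0.963 to 10.7 ± 1.57 FPKM; log2 fold change 0.67, limma adjusted p = 0.00854), Nudt21 (51.3 ± 5.74 to 118 ± 26.2 FPKM) and Cpsf7 (1.45 ± 0.432 to 6.08 ± 1.84 FPKM), both of cleavage factor I, and Rbbp6 (3.02 ± 0.370 to 11.8 ± 3.48 FPKM). All 4 were also called higher under the other 3 scalings and with any 1 library left out as deposited. Among those that fell, Cpsf3, the endonuclease that cuts the pre-mRNA, went from 73.9 ± 4.72 to 31.8 ± 2.29 FPKM (log2 fold change −1.19, limma adjusted p = 0.000162; 0.00291 with the factors removed). Papola, the poly(A) polymerase (122 ± 5.30 to 71.9 ± 0.109 FPKM), and Wdr33, which binds the poly(A) signal (161 ± 7.42 to 93.1 ± 9.06 FPKM), were lower as deposited and not called with the factors removed (limma adjusted p = 0.122 for each). With equal totals both were called lower (limma adjusted p = 0.0151 and 0.0199). With median-ratio rescaling Papola was called lower (limma adjusted p = 0.0475) and Wdr33 was not called (0.0583). Under all 4 scalings 4 genes were higher and 3 lower (9.23% and 18% of all tested genes), the latter being Cpsf1, Cpsf3 and Fip1l1, of which the first and last are named after their values were seen.

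**Figure D4:**
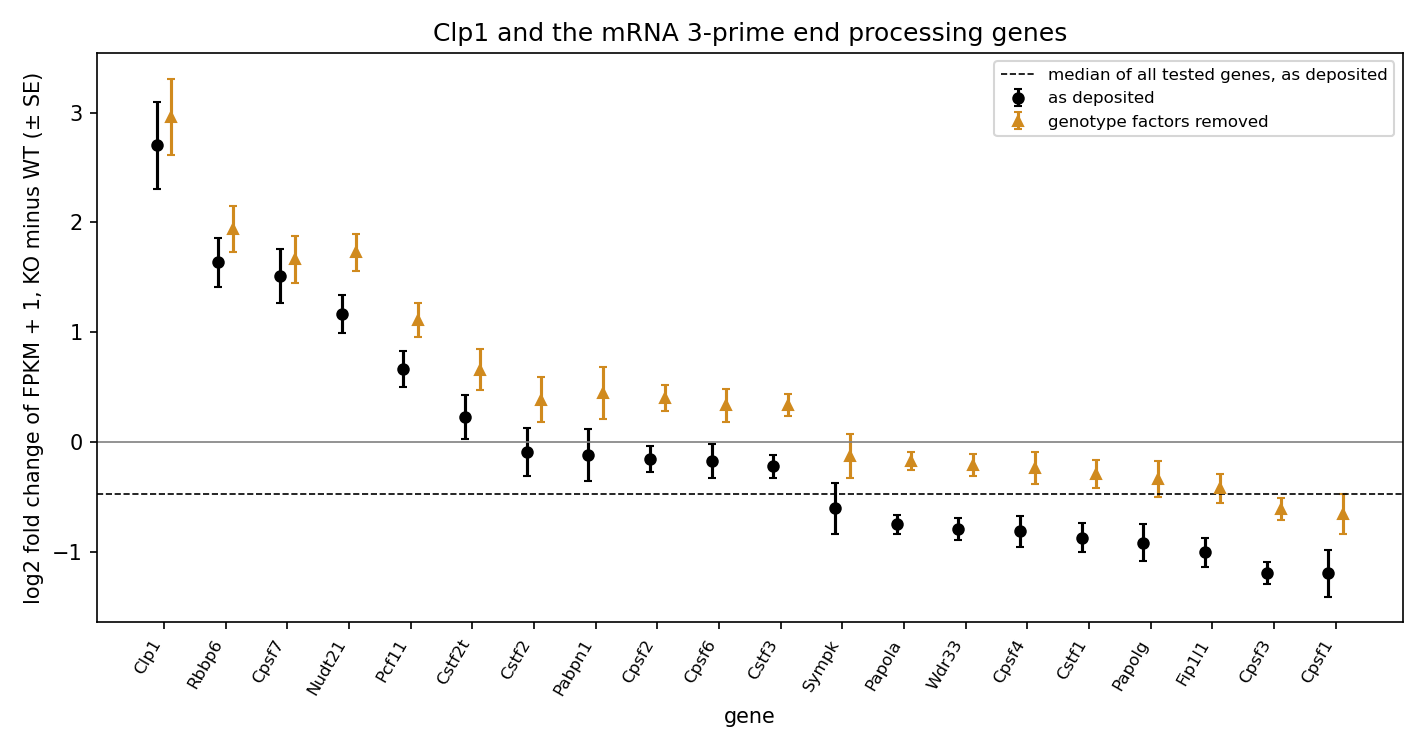
Log2 fold change of FPKM + 1 (KO minus WT, with the limma standard error) of Clp1 and 19 genes of mRNA 3′ end processing, as deposited and with the genotype factors removed. Clp1, Rbbp6, Cpsf7, Nudt21, Pcf11 and Cstf2t lie above 0 in both, the last not called as deposited (adjusted p = 0.34), and the dashed line is the median of all tested genes as deposited (−0.47).

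Genes that trim the ends of tRNAs before splicing or add their CCA tail gave 1 rise and 5 falls among 12 tested of 14 as deposited, near the 9.29% and 54% of all tested genes. With the factors removed these were 5 and 1 (25.7% and 18%), with equal totals 3 and 1, and with median-ratio rescaling 4 and 1. The list median log2 change was −0.25 (0.32 with the factors removed). Elac2, which cuts the 3′ trailer, fell from 62.6 ± 12.9 to 24.6 ± 1.42 FPKM (limma adjusted p = 0.000275; 0.0066 with the factors removed). Trnt1, the CCA-adding enzyme (98.6 ± 0.829 to 70.9 ± 3.67 FPKM), and Ssb, the La protein that binds the tails of new tRNAs (1169.5 ± 114 to 803 ± 55.7 FPKM), were lower as deposited and had log2 fold changes of 0.11 and 0.044 with the factors removed (limma adjusted p = 0.327 and 0.746). The gene that rose, named after its values were seen, was Rpp30 of RNase P (148 ± 14.3 to 229 ± 40.5 FPKM).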

How the data were processed

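Polyadenylated RNA of 3 WT and 3 Rtcb KO libraries (genotypes from the sample titles) was sequenced after Smart-seq2 with 150 bp paired-end reads, per the labels' protocols. TopHat2 2.1.1 and Cufflinks 2.2.1 with build mm9 are named in the submitters' processing notes; no source used here names the annotation. Each deposited value is the FPKM of a gene, which the authors had scaled to ERCC spike-ins, per the labels. Read depth per library is unknown.

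The 12029 genes that reached a mean of 1 FPKM were tested on log2(FPKM + 1), a scale that understates changes of low genes, with limma 3.58.1 in R 4.3.3 (lmFit, eBayes with an intensity trend, two-sided, Benjamini-Hochberg adjusted p under 0.05 over all tested genes). The step was run on simulated data without a shift common to all genes, unlike the deposited values, so that run cannot judge the scalings. Ratios of FPKM within a library were compared by an exact permutation test over libraries. The alternatives were other scalings, a pseudocount of 0.1 or 5, dropping the filter, a stricter filter at 10 FPKM, no intensity trend, a replicate block and each library left out; leaving out libraries with the factors removed was added after seeing the data. The members and lists were chosen with earlier results of these data known. Named were the 9 members, the 3 genes of smallest p per list, the nearest 2 listed genes on each side of Rtcb and Clp1 (RefSeq order, GRCm38.p6), and the 3 most similar profiles of 4 members; all 3 genes whose exons overlap a member and some cell type markers are named besides, and other genes are marked in the text. Python 3.11.15, numpy 2.4.6, pandas 2.3.3 and matplotlib 3.10.9 were used. No isoform or junction values were used.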

Additional observations from a re-analysis of the deposited data

How the results depend on the processing

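The calls of Rtcb, Ddx1, Fam98a, Clp1 and Tsen15 kept their direction and their side of the threshold under every alternative in which each was tested (21, and 20 for Tsen15, which has too low a mean for the filter of 10 FPKM). Fam98b lost its call in 3 alternatives, each with the genotype factors removed and 1 library left out (adjusted p up to 0.0619). The count of members that rose (3 as deposited) was 6 with the factors removed and 5 with median-ratio rescaling; with the factors removed and 1 library left out it ran from 3 to 5, and the count that fell from 2 to 3. As deposited and without 1 library, 3 rose and 3 to 4 fell. Rtraf (2700060E02Rik) turned positive with the factors removed (log2 fold change 0.275, ratio of means 1.21), equal totals (0.124) and median-ratio rescaling (0.205), and, with the factors removed and 1 library left out, was 0.268, 0.231 and 0.326 (WT 1 to 3) or 0.262, 0.253 and 0.31 (KO 1 to 3). Of the accessory genes, 3, 2 and 3 rose and 1, 2 and 1 fell with the factors removed, equal totals and median-ratio rescaling; at a mean of at least 10 FPKM, where 6 were tested, limma called 0 higher (0 at an unadjusted p under 0.05), and without 1 library 1 to 2 rose. Of the mRNA 3′ end genes, 7 rose and 3 fell with the factors removed, 4 fell with median-ratio rescaling, and 1 rose at a mean of at least 10 FPKM, where fewer genes were tested. Of the tRNA end processing genes, 5, 3 and 4 rose and 1 fell in each with the factors removed, equal totals and median-ratio rescaling, and 2 rose with no filter and with no intensity trend. The cause of these differences between scalings was not tested beyond the scaling itself. Shares of all tested genes called were worked out only for the 4 scalings with all 6 libraries. Counts under the other alternatives thus have no background beside them and cannot be set against the rate of calls over all genes.

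The log2 ratio of Fam98b to Ddx1 ran from −0.387 (without WT 1) to 0.195 (without WT 3); the other 7 ratios kept their sign without any 1 library and with a pseudocount of 1, which moved Tsen15 to Tsen34 from 1.91 to 1.18 and Clp1 to Tsen15 from 0.723 to 1.09. Replicate numbers do not pair the libraries by their deviations from the group means (correlations of same-numbered libraries 0.141, −0.099 and 0.038, and only 1 of 3 WT libraries correlated best with its own number). With the replicate block 3 members rose and 4 fell, as without it, with log2 fold changes such as 2.70 for Clp1 (adjusted p = 0.00128) and −5.02 for Rtcb. Under it the ratio of Fam98a to Fam98b, 2.30 on the log2 scale, had p = 0.25 by an exact permutation test within pairs, the smallest that 3 pairs can give. Depth is unknown, so counting error of low genes such as Tsen15 and Clp1 in WT could not be given.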
